A study of Mus musculus with 10 samples.

Results

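ABC transporter genes were examined in whole mouse ovaries, across young mice, aged mice and aged mice given a cell-free fat extract. The members were the genes of the count table whose symbol starts with Abc, followed by a subfamily letter from a to g, a number and at most 1 further letter, which gave 50 of 55487 genes. They comprised 16 genes of subfamily a, 10 of b, 10 of c, 4 of d, 1 of e, 3 of f and 6 of g. Tap1, Tap2 and Cftr, which are ABC proteins under other names, did not match and are given separately.

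RNA was sequenced from 10 ovaries of mice on the C57BL/6J background, with a library for each ovary. The Control group held 4 ovaries of mice aged 8 weeks, the Aged group 3 ovaries and the Aged+CF group 3 ovaries of mice aged 11 months by the labels and 10 months by the methods. Aged+CF mice received 200 μL of CEFFE, the liquid fraction of mechanically emulsified fat, at 3 μg/μL protein. By the methods this dose was injected repeatedly into the tail vein, and the Control and Aged mice were given saline in the same volume. All mice had been injected with 10 IU of PMSG, a gonadotropin that stimulates follicle growth, 48 h before the ovaries were taken. Ovaries are named here by group and by the number in their label, for example Control 31. The comparison Aged vs Control asks which members differ with age, and Aged+CF vs Aged asks which differ after the extract.

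ABC transporters are membrane proteins that bind and hydrolyse ATP and use the energy to move lipids, sterols, drugs, peptides or ions across a membrane. Subfamily a mainly handles lipids, b includes the drug pump P-glycoprotein and transporters of the mitochondrial membrane, c handles drug conjugates and organic anions, d carries fatty acyl groups into peroxisomes, and g handles sterols and drugs. Members of e and f have ATP-binding domains without a membrane part and act on ribosomes and translation. In the ovary the family is of interest because steroid-making cells take up and export cholesterol, and because drug pumps limit what reaches the cells.

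Between 15761789 and 21318254 reads were counted on genes per ovary. Levels are given as CPM, which is the read number of a gene relative to its TMM-scaled library, and levels of different genes are compared only as FPKM, which also divides by gene length. A member was called when the fold change was at least 1.5 and the edgeR quasi-likelihood p, adjusted over the 18956 genes tested, was under 0.05. Calls at the unadjusted p are given separately, since the study used both rules. Each group is 3 or 4 animals, so small changes can be missed. Because these are whole ovaries, fewer cells of a type and less RNA per cell cannot be told apart.

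Marker RNA of several cell types differed between the groups. Oocyte markers, all 10 of which had counts, summed to 383 to 528 CPM in Control, 10.8 to 109 in Aged and 141 to 231 in Aged+CF ovaries, and luteal and steroidogenic markers, 9 of 9 with counts, summed to 7030 to 13000, 16900 to 40900 and 15300 to 24400 CPM. Macrophage markers (10 of 10 with counts) summed to 483 to 554, 795 to 1590 and 706 to 801 CPM, and blood endothelial markers (10 of 10) to 559 to 670, 801 to 1030 and 669 to 738 CPM. B and T cell markers (10 of 10) summed to 6.36 to 8.98, 14.6 to 205 and 10.8 to 12.1 CPM, and erythrocyte markers (5 of 5) to 71.8 to 112, 265 to 638 and 109 to 260 CPM. Called as higher in Aged vs Control were 9 of 9 luteal, 5 of 5 erythrocyte and 7 of 9 tested B and T cell markers. So were 6 of 10 blood endothelial and 4 of 10 macrophage markers, beside 5% of all genes. Of the oocyte markers 8 of 10 were lower, beside 6.06% of all genes. Aged 34 stood apart from the other Aged ovaries, with the highest sums of B and T cell and macrophage markers and the lowest sum of oocyte markers, and values without it are given where they change a call. No stromal fibroblast, pericyte and smooth muscle, granulosa, surface epithelium, oviduct or adipocyte marker was called with age, and 2 of 6 theca markers were lower. Granulosa markers summed to 5090 to 8020, 3480 to 4480 and 3000 to 5090 CPM. Oviduct and adipocyte markers were uneven within Control, at sums of 33.9 to 450 and 21.8 to 193 CPM, and within Aged, at 32.3 to 389 and 21.2 to 216 CPM. In Aged+CF they summed to 45.5 to 94.4 and 42.5 to 57.6 CPM. No marker of these lists was at 0 in every ovary.

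Of the 50 members, 40 passed edgeR's filter on low counts and were tested, 11 of subfamily a, 8 of b, 9 of c, 4 each of d and g, 1 of e and 3 of f. Abca15 had no count, and Abca16, Abca17 and Abcg8 had at most 3 counts in every ovary. The other untested members were Abca12, Abca14, Abcb5, Abcb11, Abcc12 and Abcg5, which reached at most 30 counts in an ovary. By mean FPKM over the 10 ovaries, 7 members were at 10 or more, 25 between 1 and 10, 6 between 0.1 and 1, and 12 under 0.1.

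The highest mean FPKM of the family was that of Abcb1b, at 66.9. Next came Abca1 at 37.5, a cholesterol exporter, and then Abcf2 at 28.5 and Abcf1 at 21.0, both linked to translation. Abce1, the ribosome recycling factor, was at 18.4 FPKM. In the remaining subfamilies the leaders were Abcd3, the abundant peroxisomal membrane transporter, at 9.92 FPKM, Abcc5, a cyclic nucleotide exporter, at 9.62, and Abcg1, a cholesterol exporter, at 3.82. Abcg2, the drug pump known from breast cancer cells, was at 3.18 FPKM. The order of the leaders differed between groups, since Abcb1b had a mean FPKM of 19.0 ± 4.05 in Control (n = 4), below Abca1 at 36.2 ± 5.30, but 99.4 ± 21.9 in Aged (n = 3) against 27.9 ± 0.423 for Abca1.

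**Figure D1:**
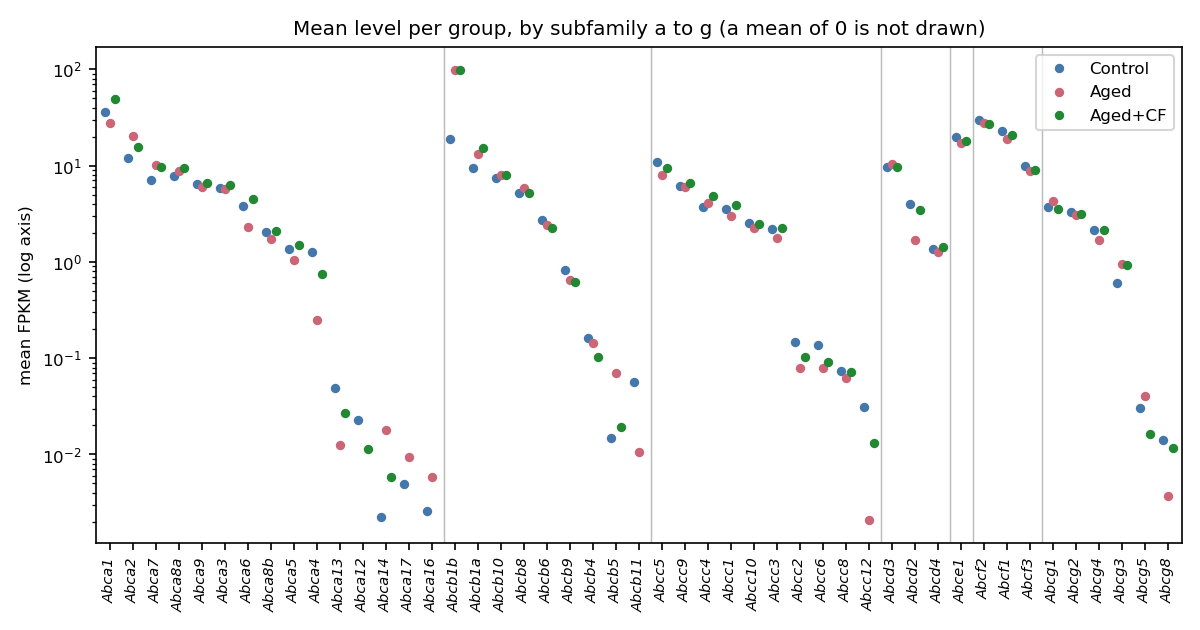
Mean FPKM of members with at least 1 count, on a log axis, by subfamily and in falling order of the mean over all ovaries, with a point for each group (n = 4 in Control, 3 in the others). Abcb1b stands at 19.0 FPKM in Control and at 99.4 and 98.5 in the aged groups.

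Together the members took 0.21 to 0.237% of the counted reads in Control, 0.289 to 0.308% in Aged and 0.307 to 0.362% in Aged+CF ovaries. Without Abcb1b the shares were 0.196 to 0.216%, 0.186 to 0.209% and 0.224 to 0.236%. The Control and Aged ranges were apart with Abcb1b and overlapped without it. Abcb1b took 6.45 to 9.52% of the members' reads in Control and 26.9 to 39.7% in the aged mice of both groups.

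**Figure D2:**
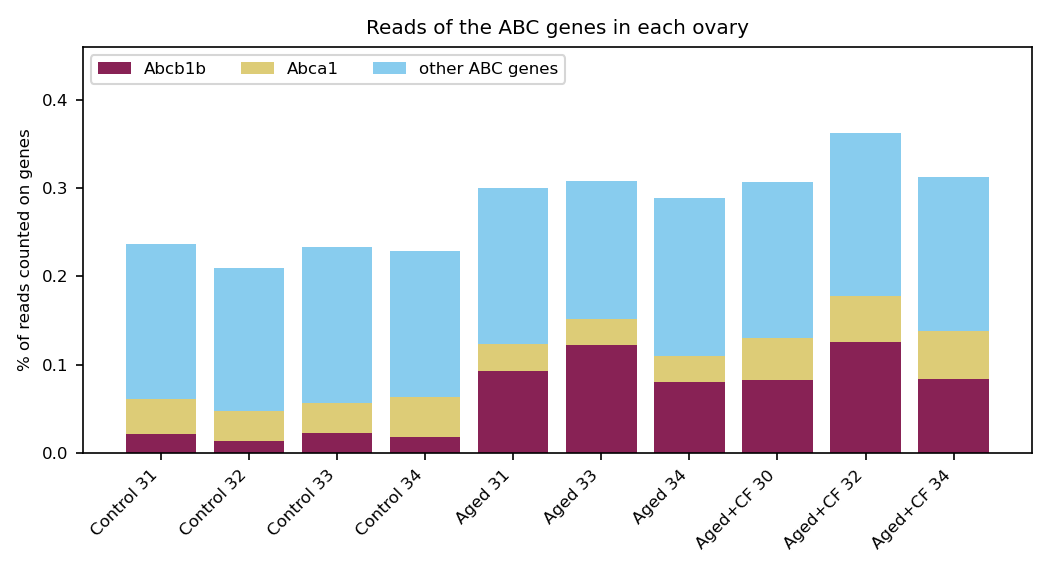
Percent of the reads counted on genes that fell on ABC genes in each of the 10 ovaries, as stacked bars split into Abcb1b, Abca1 and the other members. The Abcb1b segment is small in the 4 Control ovaries and makes up 26.9 to 39.7% of the bar in the 6 ovaries of aged mice.

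The strongest difference of the family was in P-glycoprotein. Abcb1a and Abcb1b are the mouse genes for this pump, which exports hydrophobic drugs and other compounds, and Abcb1b is known for its abundance in steroid-making tissue. They lie next to each other on chromosome 5, followed by Abcb4, the phospholipid flippase of bile. In GENCODE M21 on GRCm38, Abcb1a (ENSMUSG00000040584) spans chr5:8660077-8748575 and Abcb1b (ENSMUSG00000028970) chr5:8798147-8866315, both on the plus strand. Their coding sequences are 87.7% identical, with a longest identical run of 338 bases, and 18.3% of the 50-base windows of the Abcb1b transcript, or 8.72% of the 100-base windows, occur also in transcripts of other members. How reads that fit both genes were counted is not given in the sources used here, so the division of reads between them is uncertain. The stretch below is shown because it separates the 2 genes: it begins at base 1883 of the Abcb1a coding sequence and base 1892 of that of Abcb1b, is 90 bases long in each, and the capitals mark the 29 bases that differ.
Abcb1a: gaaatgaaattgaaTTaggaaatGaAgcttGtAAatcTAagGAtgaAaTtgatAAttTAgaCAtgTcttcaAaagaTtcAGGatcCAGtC
Abcb1b: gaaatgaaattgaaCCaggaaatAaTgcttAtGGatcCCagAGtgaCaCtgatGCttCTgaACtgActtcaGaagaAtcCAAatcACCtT

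Abcb1b was at 208, 133, 213 and 173 CPM in Control 31 to 34. The Aged ovaries 31, 33 and 34 gave 961, 1400 and 798 CPM, and the Aged+CF ovaries 30, 32 and 34 gave 805, 1260 and 841 CPM. All 6 ovaries of aged mice were above all 4 Control ovaries, and the Aged and Aged+CF ranges overlapped. The log2 fold change in Aged vs Control was 2.54 ± 0.25 (SE), a fold of 5.81 (edgeR adjusted p = 0.00221). Against Control, the Aged+CF ovaries gave 2.42 ± 0.25, a fold of 5.33 (edgeR adjusted p = 0.00647). Between Aged+CF and Aged the log2 difference was -0.12 with a 95% interval of -0.70 to 0.46 (edgeR adjusted p = 0.845), so that a change of 1.5-fold in the lower direction lies inside the interval. Both calls held in each of the 10 fits that left out 1 ovary. Luteal and steroidogenic markers were higher in all ovaries of aged mice than in all Control ovaries, as was Abcb1b, and their part in the result was not tested. Abcb1b also overlaps Gm5106 on the other strand, and whether counting used the strand is not given in the sources used here.

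Abcb1a was at 76.7, 52.0, 61.1 and 62.9 CPM in Control, 92.9, 105 and 97.4 CPM in Aged, and 94.1, 110 and 118 CPM in Aged+CF. Control lay below both other groups without overlap. Abcb1a rose in Aged vs Control by a log2 fold change of 0.64 ± 0.13 (SE), a fold of 1.56 (edgeR adjusted p = 0.0141). Without Control 32, the lowest ovary, the log2 fold change was 0.56, under the fold of 1.5, with an adjusted p of 0.0373. By mean FPKM, Abcb1a stood at 9.33 in Control and 13.3 in Aged, which is also under a fold of 1.5. Its log2 fold change from Control to Aged+CF was 0.77 ± 0.13 (edgeR unadjusted p = 0.000168, adjusted p = 0.0653), which did not pass the adjusted rule. Without Control 31 the adjusted p was 0.0483 and without Aged 34 it was 0.0274. The ratio of Abcb1b to Abcb1a, as FPKM, was 1.81 to 2.47 in Control, 5.8 to 9.48 in Aged and 5.05 to 8.09 in Aged+CF, so Abcb1b was the higher of the pair in every ovary. Abcb4 was low, at a mean FPKM of 0.139, with a log2 fold change of -0.07 in Aged vs Control (95% interval -0.79 to 0.66).

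The 250 bases upstream of the Abcb1b start, chr5:8797897-8798146 on the plus strand (RefSeq, GRCm38.p6), are shown because this gene had the largest fold of the family, with capitals for the letters CCAAT or its reverse complement ATTGG and for GGGCGG. The matches to CCAAT begin 87 and 66 bases, and the match to GGGCGG 48 bases, upstream of the start.
Abcb1b promoter: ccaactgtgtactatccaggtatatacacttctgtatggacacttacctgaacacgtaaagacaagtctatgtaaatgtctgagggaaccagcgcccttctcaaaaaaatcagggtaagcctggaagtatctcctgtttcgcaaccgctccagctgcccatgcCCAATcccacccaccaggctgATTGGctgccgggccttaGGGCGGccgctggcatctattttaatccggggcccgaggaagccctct
The RefSeq table held promoters of 38 members, in the same build as the counts. On either strand, CCAAT occurred in 12 of these 38 and in 34.5% of all 27025 promoters searched, and GGGCGG in 16 of 38 and in 32.9% of all. Of the other letters searched, TATAAA was in 5 of 38 (13.0% of all), AGGTCA in 5 (13.8%), CACGTG in 5 (6.0%) and TGANTCA in none (6.9%). These are matches of letters and not measured binding.

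In Aged vs Control, 7 of the 40 tested members were called at the adjusted p, where the share over all genes tested was 11.1%. Higher in Aged were 4 of 40 (5% of all genes), with Abcb1b, Abcb1a and Abca7 among them, and Abca4, Abca13 and Abcd2 were lower (3 of 40, 6.06% of all genes). At the unadjusted p 10 of 40 were called, against 18.2% of all genes. Abca2 and Abcg3 were added on the higher side (6 of 40, 8.79% of all genes) and Abca6 on the lower (4 of 40, 9.44% of all genes). The Aged and Control ovaries did not overlap in 13 of 40 members, against 27.5% of all genes, with 8 higher in Aged (11.8%) and 5 lower (15.6%). Without Aged 34, 10 members were called at the adjusted p, against 16.1% of all genes. The median log2 fold change was -0.05 over the tested members and -0.00 over all genes. By subfamily, 3 of 11 tested members of a and 2 of 8 of b were called at the adjusted p, and none of the 9 of c, of e, of the 3 of f or of the 4 of g.

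**Figure D3:**
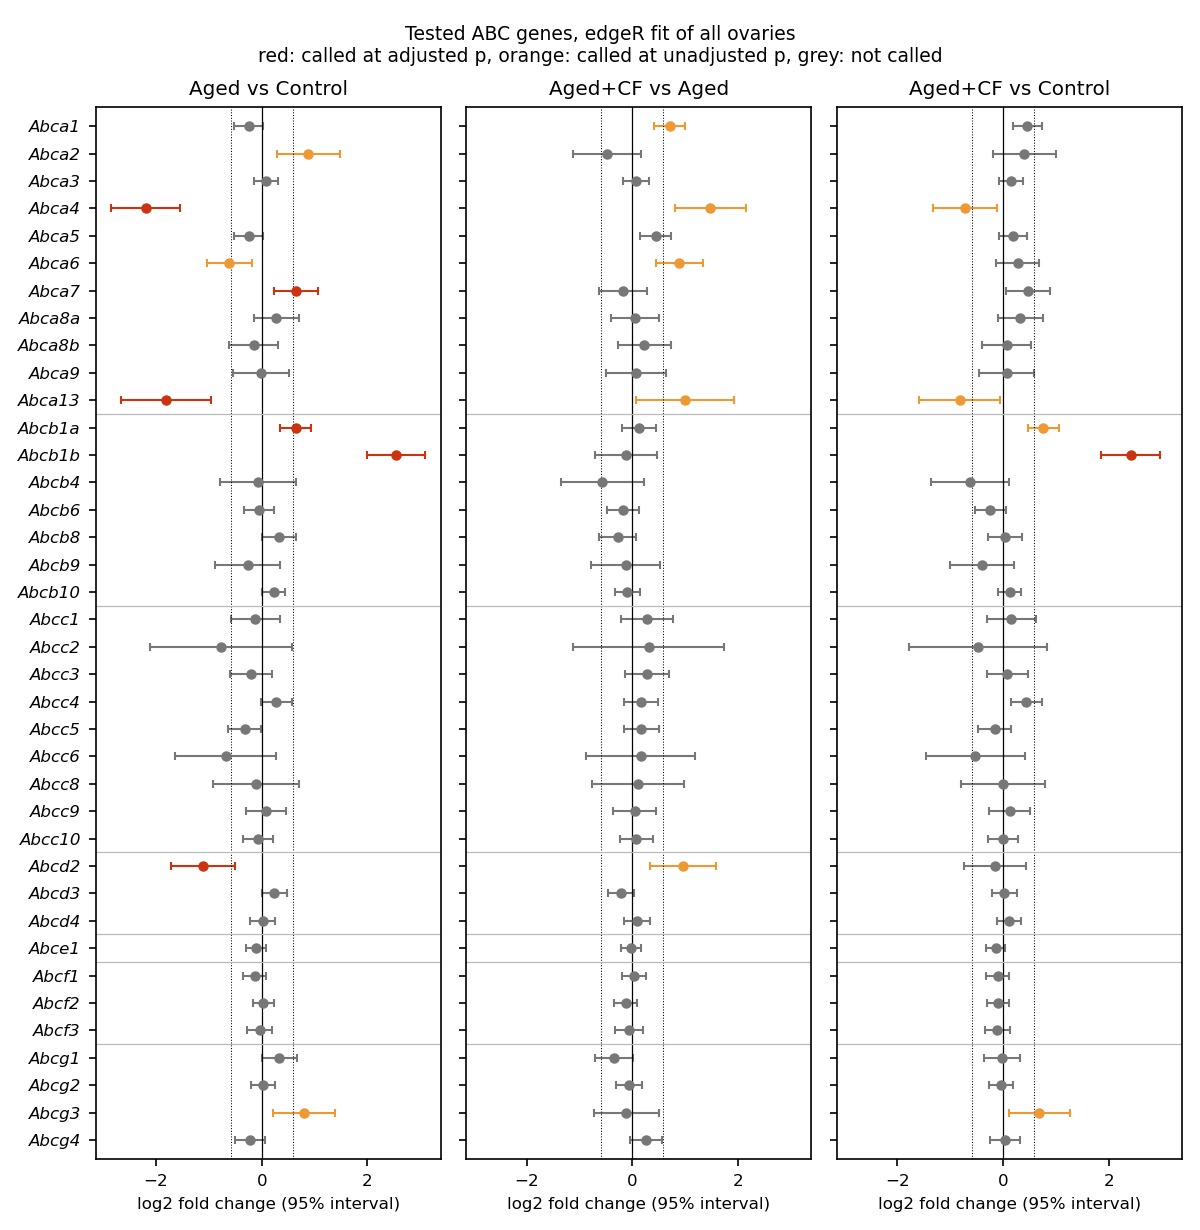
Log2 fold change with its 95% interval for 38 of the 40 tested members in the 3 comparisons, from the edgeR fit of all 10 ovaries. Dotted lines mark a fold of 1.5, red points are calls at the adjusted p, orange points calls at the unadjusted p alone, and grey points were not called. The red points in the left panel are Abca4, Abca7, Abca13, Abcb1a, Abcb1b and Abcd2, the middle panel has none and the right panel has Abcb1b.

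Among the lipid transporters of subfamily a, Abca4 had the largest fall with age. It is a retinoid flippase known from photoreceptors. Abca4 (ENSMUSG00000028125, chr3:122044443-122180123, plus strand) was at 18.1, 21.7, 14.0 and 15.9 CPM in Control, 5.31, 3.46 and 2.65 CPM in Aged, and 10.8, 7.47 and 13.5 CPM in Aged+CF. The 3 groups did not overlap, with Aged+CF between the other two. In Aged vs Control it fell by 2.19 on the log2 scale (SE 0.29, edgeR adjusted p = 0.00488), a fall that was called in each of the 10 fits that left out 1 ovary. After the extract its log2 fold change relative to Aged was 1.48 ± 0.30 (unadjusted p = 0.000613, edgeR adjusted p = 0.15), and relative to Control -0.72 ± 0.27 (edgeR adjusted p = 0.279). The oocyte markers were also highest in Control, lowest in Aged and between them in Aged+CF, without overlap, and their part in the result was not tested. Abca4 overlaps Gm43158 and Gm43157 on the other strand.

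Abca13, a very large transporter of little known function, was near the limit of detection. Abca13 (ENSMUSG00000004668, chr11:9191942-9684259, plus strand) was at 1.05, 1.06, 0.71 and 0.954 CPM in Control, 0.418, 0.141 and 0.221 CPM in Aged, and 0.459, 0.517 and 0.609 CPM in Aged+CF, with 2 to 18 counts per ovary. The groups did not overlap and stood in the same order as those of Abca4. In Aged vs Control it fell by 1.81 on the log2 scale (SE 0.39, edgeR adjusted p = 0.0156), and the call held without each ovary in turn. Relative to Aged, the Aged+CF ovaries had a log2 fold change of 0.99 ± 0.42 (unadjusted p = 0.0384, edgeR adjusted p = 0.281). Abca12, known for lipid transport in skin, did not pass the filter, and had 3, 7, 11 and 4 counts in Control, none in any Aged ovary, and 4, 2 and 4 counts in Aged+CF. In the edgeR fit without the filter it was called at the adjusted p in Aged vs Control, where 4.56% of 36618 genes were, and between Aged+CF and Aged at the unadjusted p, where 6.03% were. A count of 0 allows up to 3 counts at these depths, and this covers counting error only.

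Abca7, which moves phospholipids and takes part in phagocytosis, was higher with age. Abca7 (ENSMUSG00000035722, chr10:79996494-80015572, plus strand) was at 59.7, 43.9, 60.7 and 42.8 CPM in Control, 99.4, 83.0 and 61.1 CPM in Aged, and 78.1, 76.4 and 60.9 CPM in Aged+CF. The lowest Aged ovary, at 61.1 CPM, barely exceeded the highest Control ovary, at 60.7 CPM. With age the log2 fold change was 0.65 ± 0.19 (edgeR adjusted p = 0.0449). After the extract the log2 fold change was -0.18 ± 0.20 relative to Aged (edgeR adjusted p = 0.692). The call with age was lost in 9 of the 10 fits that left out 1 ovary, with adjusted p from 0.0518 to 0.139, and held only without Aged 34 (adjusted p = 0.0113).

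Abca1 exports cholesterol and phospholipid to apolipoprotein A1. Abca1 (ENSMUSG00000015243, chr4:53030787-53159895, minus strand) was at 378, 333, 325 and 443 CPM in Control, 308, 333 and 296 CPM in Aged, and 469, 528 and 534 CPM in Aged+CF. Each Aged+CF ovary was above every Control and every Aged ovary. Between Aged and Aged+CF ovaries the log2 fold change was 0.71 ± 0.13, a fold of 1.63 (unadjusted p = 0.000321, edgeR adjusted p = 0.15). Against Control the Aged+CF difference was 0.46 ± 0.12 (edgeR adjusted p = 0.154) and the Aged difference -0.24 ± 0.12 (edgeR adjusted p = 0.209). Abca1 did not pass the adjusted rule in any comparison. Its Aged+CF vs Aged difference passed it in only 1 of the 10 edgeR fits that left out 1 ovary. That was the fit without Aged 34 (log2 fold change 0.65, adjusted p = 0.0475), and in the others the adjusted p reached 0.417. In the DESeq2 fit of all ovaries Abca1 passed the rule in this comparison (adjusted p = 0.000159). The 250 bases upstream of its start (chr4:53159896-53160145, minus strand, RefSeq, GRCm38.p6) are shown because it had the smallest unadjusted p of the members in Aged+CF vs Aged, with GGGCGG and TATAAA in capitals, the last beginning 29 bases upstream of the start.
Abca1 promoter: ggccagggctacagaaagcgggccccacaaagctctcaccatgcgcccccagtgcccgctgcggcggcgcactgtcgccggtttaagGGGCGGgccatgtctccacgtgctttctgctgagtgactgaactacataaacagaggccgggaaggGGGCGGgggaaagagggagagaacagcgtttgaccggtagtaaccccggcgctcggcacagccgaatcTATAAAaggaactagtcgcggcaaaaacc

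Abca6 lies in a run of related genes on chromosome 11 with Abca5, Abca8a, Abca8b and Abca9, whose transport roles are less well known. Abca6 (ENSMUSG00000044749, chr11:110176820-110251776, minus strand) was at 21.8, 16.8, 23.4 and 19.5 CPM in Control, 12.3, 10.0 and 17.5 CPM in Aged, and 24.1, 25.0 and 24.9 CPM in Aged+CF. Aged+CF lay above both other groups, whereas Aged 34 lay inside the Control range. Abca6 had a log2 fold change of -0.61 ± 0.19 with age (edgeR adjusted p = 0.0552) and of 0.89 ± 0.20 from Aged to Aged+CF (unadjusted p = 0.00132, edgeR adjusted p = 0.161). Without Aged 34, the highest Aged ovary, both passed the adjusted rule, at -0.83 (adjusted p = 0.00878) and 1.12 (adjusted p = 0.0217). Each passed in only 1 of the 10 edgeR fits that left out 1 ovary, with adjusted p up to 0.153 and 0.417. The 4 neighbours in the run had log2 fold changes of -0.25 (Abca5), 0.28 (Abca8a), -0.16 (Abca8b) and -0.01 (Abca9) in Aged vs Control and were not called. From Aged to Aged+CF they had 0.44, 0.06, 0.23 and 0.08.

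Of subfamily d, Abcd2 is a peroxisomal transporter of fatty acyl groups and was lower with age. Abcd2 (ENSMUSG00000055782, chr15:91145871-91191799, minus strand) was at 27.1, 23.9, 24.3 and 20.5 CPM in Control, 14.6, 8.75 and 9.93 CPM in Aged, and 24.5, 12.8 and 27.5 CPM in Aged+CF. Every Aged ovary was below every Control ovary, and Aged+CF 32 lay within the Aged range while the other two Aged+CF ovaries lay within or above the Control range. In Aged vs Control it fell by 1.11 on the log2 scale (SE 0.27, edgeR adjusted p = 0.0239). The adjusted p was 0.0535 without Control 31, 0.0572 without Control 32 and 0.0771 without Aged 33. The Aged+CF ovaries differed from Aged by 0.96 ± 0.28 on the log2 scale (unadjusted p = 0.0067, edgeR adjusted p = 0.182) and from Control by -0.15 ± 0.26 (edgeR adjusted p = 0.835). By mean FPKM, Abcd2 stood at 3.97, 1.69 and 3.49 in Control, Aged and Aged+CF. Abcd3, which also serves peroxisomes, had a log2 fold change of 0.24 with age (edgeR adjusted p = 0.155), and Abcd4, a lysosomal cobalamin transporter, of 0.02 (edgeR adjusted p = 0.939).

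**Figure D4:**
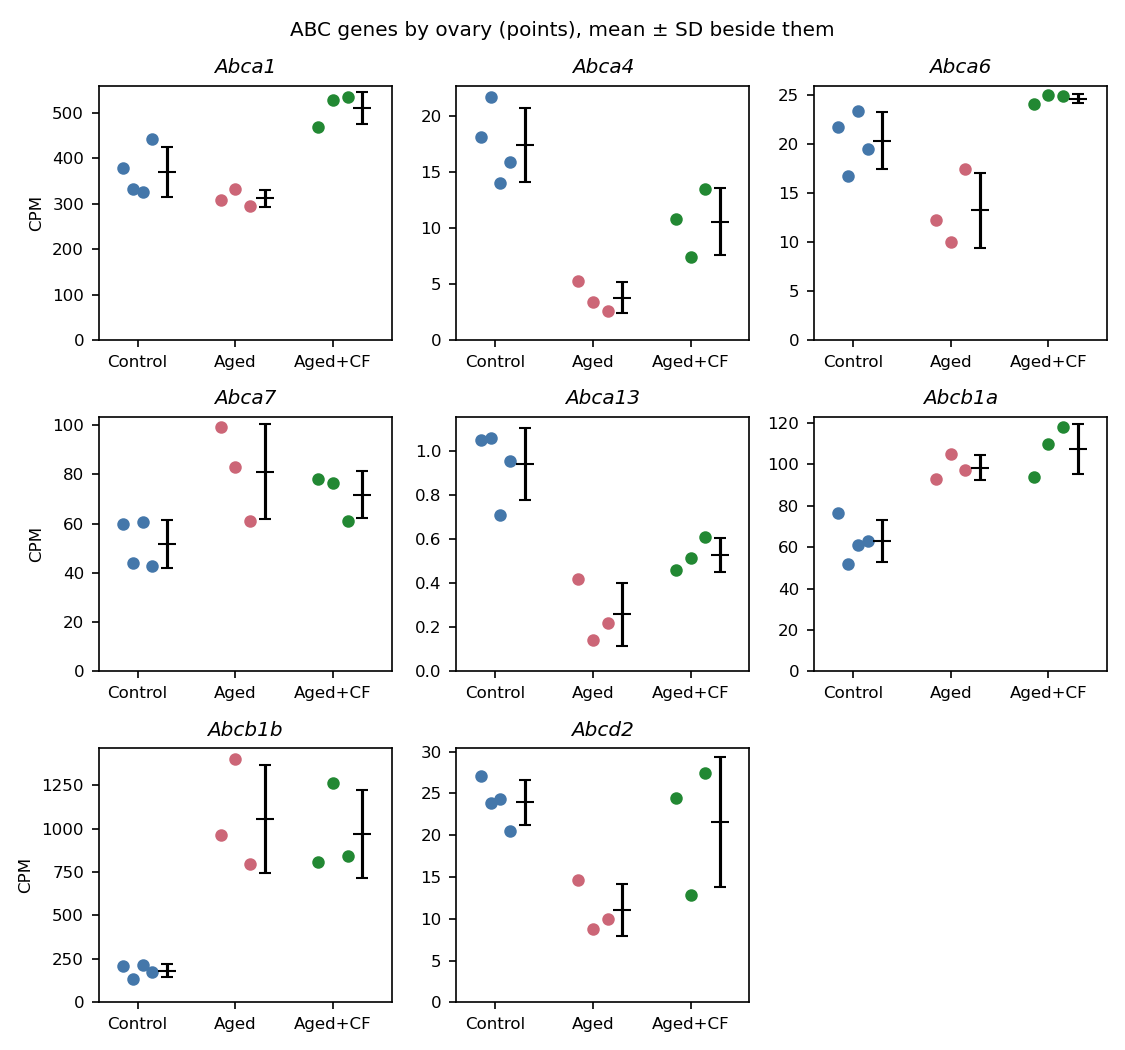
CPM of 8 members called at the adjusted p in any comparison or at the unadjusted p in Aged+CF vs Aged, each in its own panel with an axis from 0. Points are single ovaries of Control (n = 4), Aged (n = 3) and Aged+CF (n = 3), and the bars beside them give the mean ± SD. Abcb1b and Abcb1a are higher in both aged groups than in Control, while Abca4, Abca13 and Abcd2 are lowest on average in Aged.

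In Aged+CF vs Aged, none of the 40 tested members was called at the adjusted p by edgeR, and of all genes 0.00528% were. DESeq2 called 4, namely Abca1, Abca4, Abca6 and Abcd2, against 2.33% of all genes. By edgeR, 6 of 40 members had an unadjusted p under 0.05 at any fold, and 16.3% of all genes did, so this share of the members was near that of all genes. Without Aged 34, edgeR called 3 at the adjusted p, against 2.87% of all genes. With the fold rule and the unadjusted p, 5 members were called, Abca1, Abca4, Abca6, Abca13 and Abcd2, all higher in Aged+CF. Over all genes 7.96% were called by this rule, 3.91% as higher and 4.05% as lower. The 2 groups did not overlap in 8 of 40 members, against 18.6% of all genes, with 7 higher in Aged+CF (10.2% of all genes) and 1 lower (8.39%). This comparison shares the 3 Aged ovaries with Aged vs Control, so the values of both are given side by side only. The median log2 fold change was 0.06 over the members and -0.02 over all genes, and by subfamily 9 of 11 tested members of a and 9 of 9 of c had positive values, against 1 of 8 of b, while 47.4% of all genes had positive values. None of the members of c was called, with a median of 0.17 here and of -0.12 with age.

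In Aged+CF vs Control, Abcb1b alone of the 40 tested members was called at the adjusted p, where 0.179% of all genes were in either direction and 0.137% as higher. At the unadjusted p 5 were called, against 7.69% of all genes, with Abcb1a, Abcb1b and Abcg3 higher (3 of 40, 3.33% of all genes) and Abca4 and Abca13 lower (2 of 40, 4.36%). The 2 groups did not overlap in 14 members, against 21.9% of all genes, 11 of them higher in Aged+CF (9.69% of all genes) and Abca4, Abca13 and Abcb4 lower (12.2%). Abcg3, a rodent relative of the drug pump Abcg2, was above Control by 0.80 ± 0.26 on the log2 scale in Aged (edgeR adjusted p = 0.064) and by 0.69 ± 0.26 in Aged+CF (edgeR adjusted p = 0.28).

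Several members differed little. The 95% interval of the log2 fold change lay within a fold of 1.5 either way in 18 of 40 members for Aged vs Control (32.4% of all genes), 18 for Aged+CF vs Aged (34.5%) and 20 for Aged+CF vs Control (40.5%). Abce1 and the 3 members of f, which act in translation, were within it in each comparison, as were Abcg2, Abcg4, Abcd3 and Abcd4. For Abcg2 the interval was -0.21 to 0.25 with age and -0.30 to 0.19 between Aged+CF and Aged, at 29.7 to 37.5 CPM over all ovaries. Of the mitochondrial members, Abcb6, Abcb8 and Abcb10 had log2 fold changes of -0.06, 0.32 and 0.22 with age and were not called. In subfamily c, the drug and conjugate exporters Abcc1 to Abcc5 had log2 fold changes of -0.78 to 0.27 with age, the lowest being Abcc2 at 1 to 35 counts per ovary, and Abcc9, the sulfonylurea receptor of vascular potassium channels, had 0.08.

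The partners of the transporters were described by lists. Among 18 tested sterol efflux partners, 4 were higher in Aged vs Control at the adjusted p and none lower, with a median log2 fold change of 0.21, where 5% of all genes were called as higher and 6.06% as lower. They included Scarb1, the receptor for high-density lipoprotein (835 ± 319 CPM in Control and 2750 ± 1470 in Aged, edgeR adjusted p = 0.0329), which is also a marker of the luteal list, and Nr1h3, a sterol sensor that activates Abca1 (log2 fold change 1.05 ± 0.24, edgeR adjusted p = 0.0211). Among 24 tested genes of peroxisomal oxidation and biogenesis, 3 were higher and none lower, beside the same 5% and 6.06%, among them the oxidase Acox3 (log2 fold change 1.13 ± 0.32, edgeR adjusted p = 0.0422) and the bifunctional enzyme Ehhadh (0.76 ± 0.16, edgeR adjusted p = 0.0136). Of 21 mitochondrial heme and iron-sulfur genes 2 were higher, Slc25a39 and Fdx1, and none lower, beside the same 5% and 6.06%. Erythrocyte markers and luteal and steroidogenic markers were also higher in Aged, and their part in these differences was not tested. Of 15 tested SLCO and SLC22 transporters, which take up organic ions, Slc22a23 and Slc22a15 were higher and Slco4a1 lower, beside the same 5% and 6.06%. None of 14 xenobiotic sensor and phase II genes, of 14 ribosome recycling genes, or of Tap1, Tap2 and Cftr was called with age, nor was the tested one of 2 listed potassium channel pores. Between Aged+CF and Aged none of these lists had a gene called at the adjusted p, where 0.00528% of all genes were. Slc22a23 was called as higher in Aged+CF vs Control (log2 fold change 1.83 ± 0.28, edgeR adjusted p = 0.0374), where 0.137% of all genes were.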

How the data were processed

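RNA of 10 mouse ovaries was used, grouped by the labels (4 Control, 3 Aged, 3 Aged+CF). For each gene the authors deposited the raw count and the FPKM computed from it, after processing for which the submitters' notes name TopHat, Cufflinks 2.1.1 and GRCm38.p4. The counting tool and strand setting are not given in the sources used here. Counts were analysed with edgeR 4.0 in R 4.3, with the filter on low counts by group, TMM scaling and a quasi-likelihood F test of all ovaries, with Benjamini-Hochberg adjustment over 18956 genes. The fit was tested on simulated data. Positions came from GENCODE M21, which held all 50 members, and promoters from RefSeq. Members, gene lists and tests were chosen with earlier results of these data known.

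Each ovary is given for members called at the adjusted p in any comparison or at the unadjusted p in Aged+CF vs Aged, levels for the leader of each subfamily, and for partner lists the counts and up to 3 genes called at the adjusted p. Abca2, Abca5, Abca8a, Abca8b, Abca9, Abca12, Abcb4, Abcb6, Abcb8, Abcb10, Abcc1 to Abcc5, Abcc9, Abcg2 and Abcg3 were named beyond this after their values were seen. The labels give each ovary its own number within its group, and ovaries with the same number in different groups are of different animals. Alternatives were no filter, DESeq2 size factors, the DESeq2 1.42 Wald test, only the compared groups, the replicate number as a block, ratios of mean FPKM, and leaving out each ovary. Some genes chosen by these rules are not reported here.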

Additional observations from a re-analysis of the deposited data

Results flagged for a closer look

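In the Control group of 4 ovaries, 4 of 44 members examined had an ovary flagged by Dixon's criterion, where chance gives about 1 in 20, or 2.2. The criterion divides the gap to the nearest ovary by the range, so a small difference is flagged when the other ovaries lie close together. Abca8b was lowest in Control 34, at 13.7 CPM against 16.1 to 16.6 in the others. Abcb4 was lowest in Control 33, at 1.37 CPM against 1.7 to 1.75. Abcb11, the bile salt export pump, was at 1.52 CPM in Control 33, with 30 counts, and had none in the other Control ovaries. Abcg2 was highest in Control 31, at 35.5 CPM against 33.7 to 34 in the others.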

How the results depend on the processing

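With the DESeq2 Wald test, 4 members were called at the adjusted p in Aged+CF vs Aged and 2 in Aged+CF vs Control. Over all genes that test called 2.33% and 2.79%. With only the compared groups 2 members were called in Aged+CF vs Control, against 2.63% of all genes. The main fit called 1 member in that comparison, against 0.179% of all genes. With the replicate block, 1 member (Abcb1b) was called with age and 0 in Aged+CF relative to Control, where the calls over all genes were 0.422% and 0.0475%, and the Aged+CF vs Aged log2 fold changes of Abca7 (0.066) and Abcb1b (0.32) changed sign. Same-numbered Control and Aged ovaries had correlations of 0.14, -0.19 and 0.07 of their deviations from the group means. For same-numbered Aged+CF ovaries the correlations were -0.09 (with Control 32), 0.15 (with Control 34) and -0.06 (with Aged 34). So few ovaries cannot show whether a shared number stands for a shared batch. Leaving out each ovary gave 3 to 10 calls at the adjusted p and 7 to 12 at the unadjusted p with age. Over all genes the calls with age then ranged from 5.74 to 16.1% and from 16.2 to 22.1%. The members' ranges were 0 to 3 and 4 to 6 between Aged+CF and Aged, and 1 to 2 and 2 to 6 between Aged+CF and Control. At the adjusted p the fewest with age came without Control 32 and the most without Aged 34. At the unadjusted p the 7 came without Control 32 or Aged 31 and the 12 without Aged 34. Leaving out Aged 34 also gave the 3 in Aged+CF vs Aged (Abca1, Abca6 and Abcc1), against 2.87% of all genes. At the unadjusted p that fit gave 6 in this comparison, against 12.2% of all genes. In Aged+CF vs Control, 2 calls at the adjusted p came without Control 31 or Aged 34, where 0.128% and 1.8% of all genes were called. At the unadjusted p 2 came without Aged+CF 32 and 3 without Control 32, Control 34 or Aged+CF 30. Over all genes 5.57% were called at the unadjusted p without Control 32 and 6.34% without Control 34. Uncalled differences changed sign for Abcb1b in Aged+CF vs Aged without Aged 33 (leave-one-out range -0.36 to 0.14) and for Abcd2 in Aged+CF vs Control without Aged+CF 32 (-0.34 to 0.12). Abca7 in Aged vs Control was not called without the filter (edgeR adjusted p = 0.0673), where Abca12 was, or with only the compared groups (0.0808). No call reversed its direction. The causes of these changes were not tested. At these depths Abca13 and the untested members, with at most 30 counts in an ovary, allow only large differences to be seen.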
